A study of Drosophila melanogaster with 24 samples.

Results

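Genes of antimicrobial peptides and of immune recognition proteins were followed in whole adult fruit flies whose Hr96 gene was targeted by a transgene. They were taken by the symbol the platform annotation gives: attacins, cecropins, diptericins, drosomycins and their relatives, metchnikowin, defensin, peptidoglycan recognition proteins (PGRPs), the GNBPs, Turandot proteins, bomanins and galactose-binding lectins. This gave 35 genes of the 11982 that the annotation names, each read by 1 probe set. They are 8 bomanins, 7 drosomycins, 7 PGRPs, 5 Turandots, 2 GNBPs and 1 each of the attacins (AttD), cecropins (CecB), defensin (Def), diptericins (DptB), metchnikowin (Mtk) and lectins (Lectin-galC1). Another 2 probe sets name more than 1 gene, and no value was taken from them. They read PGRP-SC1a together with PGRP-SC1b, both of the PGRP family, and PGRP-LD together with Pmi.

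Flies defend themselves with peptides secreted mainly by the fat body, the insect counterpart of liver and fat tissue, and by surface linings such as the gut. The Toll pathway answers fungi and many Gram-positive bacteria and is known for switching on drosomycin and the bomanins. The Imd pathway answers the peptidoglycan of Gram-negative bacteria, which PGRPs detect, and is known for switching on diptericins, attacins and cecropins. Some PGRPs signal, while others are amidases that cut peptidoglycan and hold the response down. Turandot proteins are secreted during stress and are known as outputs of JAK-STAT signalling.

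Each of 24 Affymetrix arrays measured total RNA of whole flies 0 to 3 days old, in 8 groups of 3 (4 genotypes, with females and males apart). Over-expression flies were w;Act5C-GAL4/UAS:OE_Dhr96OE_35 (line 35), and their control was w;Act5C-GAL4/+. Flies labelled knockdown were w;arm-GAL4/+;UAS:RNAi_Dhr96Hp_3/+ (line 3), a hairpin transgene for RNA interference, and their control was w;arm-GAL4/+. All 4 genotypes carry w and a GAL4 driver, each transgene comes from 1 line, and both drivers act in most tissues. Replicate numbers 1, 2 and 3 are 3 batches of food of 1 recipe made on different days, and the labels call the replicates biological. The values are RMA intensities, given here on the log2 scale, so a difference of 1 is a 2-fold change. Differences were tested with limma over all 18769 probe sets, and a gene is called where its adjusted p was under 0.05. In whole flies, fewer cells of a type and less RNA per cell cannot be told apart.

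Hr96 was higher in over-expression flies than in the Act5C-GAL4 control of the same sex (limma adjusted p = 0.0333 in females and 7.4e-04 in males), with 1 low array, over-expression males replicate 2, at 7.61. The female call was lost with any of the 6 compared arrays left out but over-expression females replicate 3 (adjusted p = 0.0621 to 0.172). Hr96 was not lower in flies labelled knockdown (log2 difference 0.01, SE 0.22, mean of both sexes, limma adjusted p = 0.999), so directions given for them refer to the label alone. Array medians lay between 52.9 and 65.5 on the linear scale, and arrays of a group correlated across probe sets at 0.974 to 0.992. Among the controls, all 5 ovary and yolk markers measured were higher in females, and all 3 accessory gland and 5 testis markers were lower. The number of arrays limits the precision of each value.

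The plot of levels on the 24 arrays shows each gene's range. Signals of different probe sets also depend on their probes, so the order of genes within a family is an order of readings and not of transcript numbers. Among the bomanins the mean over all arrays ran from 9.28 for BomBc3 to 11.08 for BomBc2. Among the drosomycins Drs, Drsl4 and Drsl5 read 10.48, 10.34 and 10.05 on average, while the other members lay at 5.01 or below, down to 4.22 for Drsl6. PGRP-SC2 read 10.10 and PGRP-SB2 5.46, the highest and lowest of the PGRPs. GNBP3 read 7.60 and GNBP2 6.49. Of the Turandots, TotC had the highest mean, 6.60, and TotB the lowest, 4.02.

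The group mean of TotB fell under 4.38, the smallest lower quartile of any array, in all 8 groups, and Drsl6 and TotZ did so in 7 of 8 and AttD in 6 of 8. For these genes a reading may be mostly background, and small differences are uncertain in size.

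**Figure D1:**
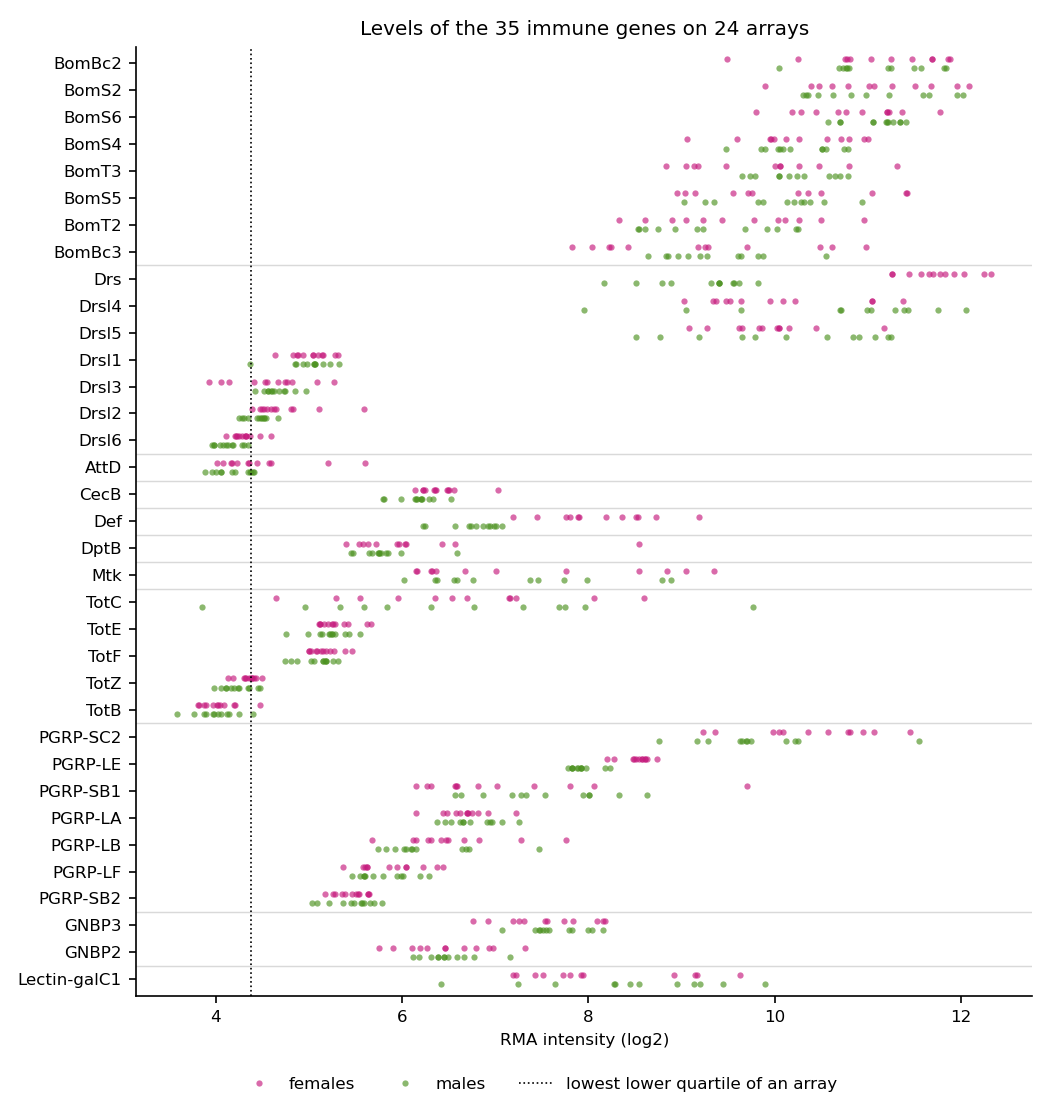
Levels of the 35 genes by family, 1 point per array (12 female and 12 male arrays), on the log2 intensity scale. The dotted line is the lowest lower quartile of an array, 4.38; Drs forms separate ranges in females and males, and TotC spreads from 3.85 to 9.77.

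Arrays of 1 group differed more in these genes than in most. The SD within a group had a median of 0.39 over the 35 genes and of 0.19 over all probe sets, and 22 of the 35 lay above the 90th percentile of all probe sets. TotC had the widest spread, 1.07, followed by Mtk with 0.86, BomBc3 with 0.73 and PGRP-SB1, an amidase, with 0.71. PGRP-LE, a sensor of peptidoglycan inside cells, had the narrowest, 0.11. Mtk in arm-GAL4 control females read 6.37, 6.31 and 9.05 on its 3 arrays, so 1 array of a control group stood apart. DptB in over-expression females likewise read 6.04, 8.55 and 6.04.

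Within a group, the 3 arrays came in the same order for a pair of bomanins in a median of 3.5 of 8 groups. For pairs of all 35 genes the median was 1. Of the 28 pairs of bomanins, the median pair had the same lowest array in 6 of 8 groups, against 3 for the 595 pairs of all 35 genes. Of the 595 pairs, the one with the most groups in the same order was GNBP3, which binds fungal glucans upstream of Toll, and PGRP-LA. They shared the lowest array in 8 of 8 groups and the whole order in 7. Some of the 35 genes are neighbours in the RefSeq gene table, with no protein-coding gene between them, and neighbours differed in this. BomBc2 and BomS4 shared the lowest array in 7 of 8 groups and Drsl4 and Drsl5 in 6, but TotB and TotC did in 4, Drsl2 and Drsl3 in 3, and Drsl3 and Drsl4 in 1. Whether probes of these related genes also bind each other's transcripts was not tested.

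With over-expression, 2 drosomycin-like genes and the lectin gene were lower in males, and 1 drosomycin-like gene was higher in females. In males Drsl4 was 6.11-fold, Lectin-galC1 5.31-fold and Drsl5 3.41-fold lower than in the Act5C-GAL4 control. In females Drsl2 was 1.59-fold higher. Over the mean of both sexes, Drsl4 and Lectin-galC1 were lower. These are 1 of 35 genes in females, where 0.874% of all probe sets were called, 3 of 35 in males (1.17%) and 2 of 35 in the mean (1.88%).

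Drsl4 encodes a relative of the antifungal peptide drosomycin. It read 9.64, 7.95 and 9.05 in over-expression males, against 11.39, 11.04 and 12.05 in Act5C-GAL4 control males. All over-expression male arrays lay below all control arrays. Drsl4 changed by -2.61 on the log2 scale (SE 0.45, limma adjusted p = 0.00262, n = 3 arrays each). In females it read 10.22, 9.03 and 9.53 with over-expression, against 11.05, 9.95 and 11.38 in the control, and the ranges overlapped. The female change of -1.20 (SE 0.45) did not pass (limma adjusted p = 0.199), but each over-expression array was below the control of its diet batch. In the mean of both sexes Drsl4 fell by 1.91 (SE 0.32, 3.75-fold, limma adjusted p = 0.00138), with the same direction in 6 of 6 same-batch pairs.

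Lectin-galC1 encodes a secreted lectin that binds galactose. It read 7.65, 6.42 and 7.25 in over-expression males, against 9.44, 9.20 and 9.90 in control males, again with no overlap. The difference was -2.41 (SE 0.45, limma adjusted p = 0.00558), and without control males replicate 3 the adjusted p was 0.0526. In over-expression females it read 7.81, 7.43 and 7.51, against 9.63, 7.73 and 9.15 in control females. The 3 over-expression females read closely alike, while the control array of batch 2 was near them and the others were higher. The female change of -1.25 did not pass (limma adjusted p = 0.183), and it passed with the diet batch as a block (adjusted p = 0.0311). The mean of both sexes fell by 1.83 (SE 0.31, 3.56-fold, limma adjusted p = 0.00193, 6 of 6 pairs).

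Drsl5, the neighbour of Drsl4, read 9.19, 8.51 and 8.77 in over-expression males, against 9.79, 10.91 and 11.08 in control males. The groups did not overlap, and they differed by -1.77 (SE 0.41, limma adjusted p = 0.0323). Its adjusted p was 0.0904 to 0.227 without replicate 2 or 3 of either group, so the call rests on those 4 arrays. In females Drsl5 read 10.16, 9.27 and 9.83 with over-expression, against 9.87, 9.65 and 10.45 in the control, with overlapping ranges. Over both sexes its mean was 9.29 with over-expression, against 10.29 in the control, which missed the threshold (limma adjusted p = 0.0815) and passed with the diet batch as a block (adjusted p = 0.0236).

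Replicate 2 of the over-expression males, the array with the lowest Hr96 of its group, also had the lowest Drsl4, Drsl5 and Lectin-galC1. This was not particular to them: BomBc2, BomS5, Drs, GNBP3 and TotC were also lowest there, while others such as PGRP-LB were highest. Without that array the male changes were -2.15 for Drsl4 (limma adjusted p = 0.0241), -2.07 for Lectin-galC1 (0.0475) and -1.61 for Drsl5 (0.162).

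Drsl2 read 4.81, 5.11 and 5.59 in over-expression females, against 4.62, 4.50 and 4.39 in control females. Its 3 over-expression arrays lay above all control arrays of their sex, and outside them only 1 array of the series, an arm-GAL4 control female at 4.83, reached that range. The difference was 0.67 (SE 0.15, limma adjusted p = 0.0378), at a level close to the lower quartile of the arrays. The adjusted p was 0.0658 to 0.189 without replicate 2 or 3 of either group. In males Drsl2 read 4.52, 4.50 and 4.30 with over-expression, against 4.67, 4.45 and 4.26 in the control.

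Drs itself, the drosomycin gene, read 9.31, 8.16 and 8.51 in over-expression males, against 9.61, 9.55 and 9.57 in control males. The control arrays were nearly equal and all above the over-expression arrays, but the change of -0.91 (SE 0.29) did not pass over all probe sets (limma adjusted p = 0.151). In females it read 11.66, 12.25 and 11.27 with over-expression, against 11.57, 11.70 and 11.93 in the control, with overlapping ranges. Def, a peptide active on Gram-positive bacteria, read 9.19, 8.37 and 8.72 in over-expression females, against 7.19, 8.54 and 7.80 in control females. The control array of batch 2 lay within the over-expression range, and the change of 0.92 (SE 0.29) did not pass (limma adjusted p = 0.136).

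**Figure D2:**
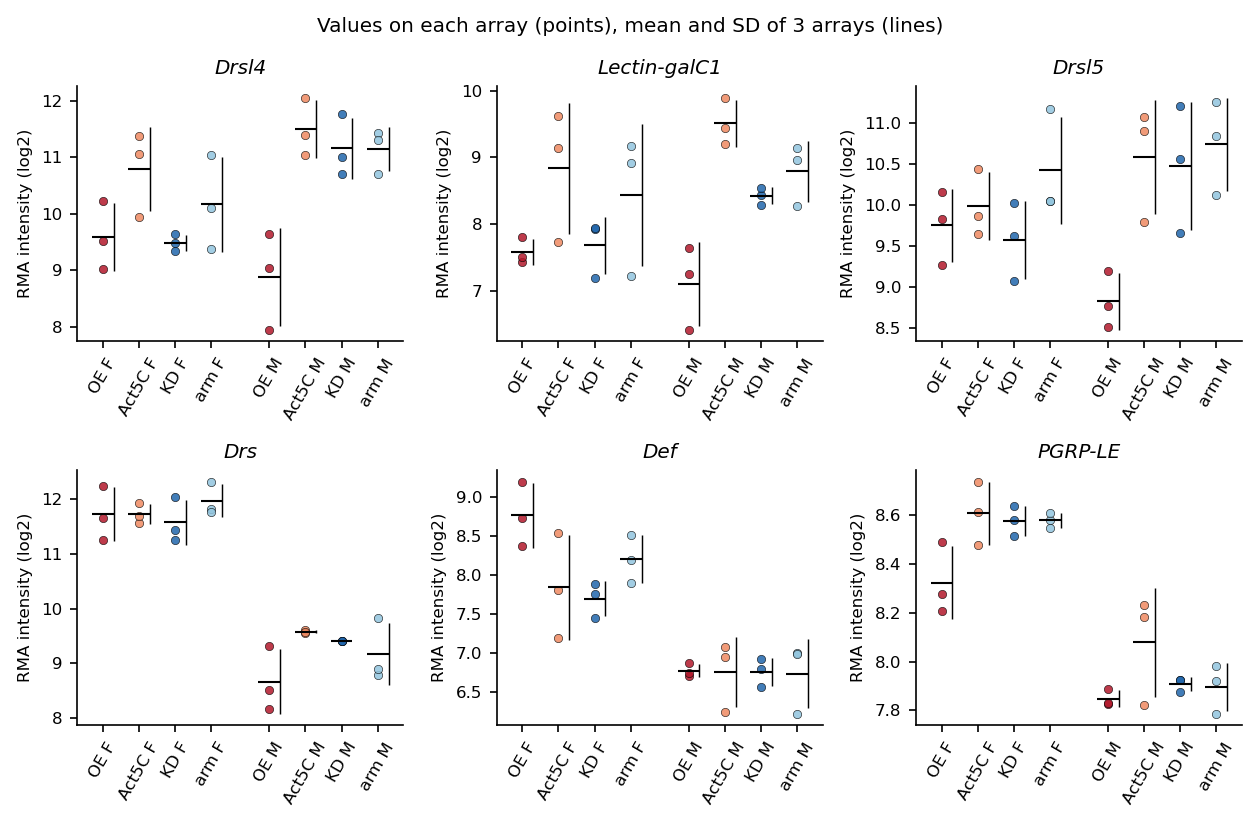
Log2 intensity of 6 genes on each array (points), with the mean and SD of 3 arrays (lines), for over-expression (OE), Act5C-GAL4 control, labelled knockdown (KD) and arm-GAL4 control flies of each sex (F, M). In males, Drsl4, Lectin-galC1 and Drsl5 lay lower on all 3 over-expression arrays than on any control array; Drs, Def and PGRP-LE lay higher in control females than in control males.

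None of the 8 bomanins passed with over-expression in either sex. In females the differences ran from -0.05 to 1.47, with 7 of 8 positive and a median of 0.68, beside a median of -0.04 over all probe sets (lowest limma adjusted p = 0.184). In males they ran from -0.65 to 0.18 with a median of -0.22. The female pattern was not shared by the diet batches: the median of the 8 same-batch differences was 0.72 in batch 1, 1.17 in batch 2 and -0.26 in batch 3. BomBc3 had the largest female difference, 1.47 (SE 0.52), with 10.62, 10.98 and 9.71 with over-expression, against 9.18, 8.43 and 9.28 in the control.

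Mtk, an antifungal peptide gene, read 8.55, 9.35 and 7.76 in over-expression females, against 7.01, 8.84 and 6.32 in control females. In males it read 7.74, 6.77 and 7.37 with over-expression, against 8.79, 8.89 and 7.99 in the control. The signs were thus opposite, with differences of 1.16 in females and -1.26 in males, and neither passed (limma adjusted p = 0.353 and 0.397). The difference between the sexes in the effect, 2.42 (SE 0.87), did not pass either (limma adjusted p = 0.256).

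No gene of the 35 was called in that comparison of the over-expression effect between females and males, where 0.165% of all probe sets were called. The effect in females minus that in males was positive for 26 of the 35 genes, with a median of 0.60 beside -0.07 over all probe sets. Of the 35 genes 8 had an unadjusted p under 0.05 (limma), beside 2719 of all 18769 probe sets. All 8 bomanins were positive, from 0.56 to 1.29. Their median same-batch change in batches 1, 2 and 3 was 0.72, 1.17 and -0.26 in females, and 0.18, -0.85 and -0.31 in males. The sexes thus lay furthest apart in batch 2 and close together in batch 3. Of the 3 genes called in males, Drsl5 had a value of 1.53 (SE 0.58, limma adjusted p = 0.274), Drsl4 of 1.41 (SE 0.63, adjusted p = 0.325) and Lectin-galC1 of 1.16 (SE 0.63, adjusted p = 0.39). None passed, so a difference between the sexes is not shown for them.

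Among recognition genes, no PGRP or GNBP passed with over-expression in the test without a block. The PGRP differences ran from -0.28 to 1.28 in females and from -0.93 to 0.21 in males. PGRP-SB1 had the largest in females, 1.28 (SE 0.51, limma adjusted p = 0.228). PGRP-SC2, an amidase that dampens Imd signalling, read 9.28, 9.65 and 9.75 in over-expression males, against 9.69, 11.55 and 10.21 in control males. Its change of -0.93 in males missed the threshold (limma adjusted p = 0.394) and passed with the diet batch as a block (SE 0.22, adjusted p = 0.0269), as did the mean of both sexes (-0.60, adjusted p = 0.0327). PGRP-LE read 8.27, 8.21 and 8.49 in over-expression females, against 8.48, 8.73 and 8.61 in control females, and the change over both sexes was -0.26 (SE 0.08, limma adjusted p = 0.104). The GNBPs differed by 0.31 and 0.50 in females, and by -0.16 and -0.35 in males. The batches did not share a sign: the median same-batch GNBP difference in batches 1 to 3 was 0.27, 1.21 and -0.26 in females. In males it was 0.07, -0.08 and -0.77. Of the Turandots, TotC had the largest differences, -1.27 (SE 0.76) in females and -0.76 in males, and the other 4 lay between -0.07 and 0.29.

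Genes that carry or regulate the immune signal were read from lists of known components. Over-expression called none of the 12 measured Toll, 10 Imd, 5 JAK-STAT, 10 melanization, 14 opsonin and phagocytosis genes or 2 other immune-induced peptide genes, in either sex or in the mean. Nor was any of these, or of the tissue markers, called in labelled knockdown flies or between the 2 driver controls. The median change in males was -0.10 for the Toll list, -0.23 for the Imd list and 0.10 for the JAK-STAT list, beside 0.03 over all probe sets.

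Markers of tissues that make these peptides were read beside them. In the mean of both sexes, where 1.88% of all probe sets were called, 2 of 5 fat body markers rose, Fbp1 by 1.61 (SE 0.32, limma adjusted p = 0.00674) and Fbp2 by 1.49 (SE 0.33, adjusted p = 0.0188), as did 1 of 7 hemocyte markers, NimC1, by 0.55 (SE 0.13, adjusted p = 0.0362). Whether Fbp1 and Fbp2 follow the amount of adult fat body in flies 0 to 3 days old was not tested. The uncalled markers did not share a direction, and the median of the hemocyte list was -0.13. Lsd-1 of the fat body list read 8.74, 7.92 and 9.06 in over-expression males, against 9.47, 9.36 and 10.19 in control males. Lsp2 read 9.75, 9.48 and 7.77 in over-expression females, against 7.89, 6.91 and 6.45 in control females. The summed intensity of the fat body list was 3360 to 6308 in over-expression males, against 5988 to 9366 in control males. In females it was 6456 to 7326 with over-expression, against 6369 to 6897 in the control. The hemocyte sum was 384 to 464 in over-expression males, against 485 to 646 in control males, and 619 to 937 in over-expression females, against 516 to 889 in control females. None of the 5 midgut markers was called, and their sum was 15408 to 27860 in over-expression males, against 18038 to 32752 in control males. The part of these tissues in the values of Drsl4, Drsl5 and Lectin-galC1 was not tested.

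**Figure D3:**
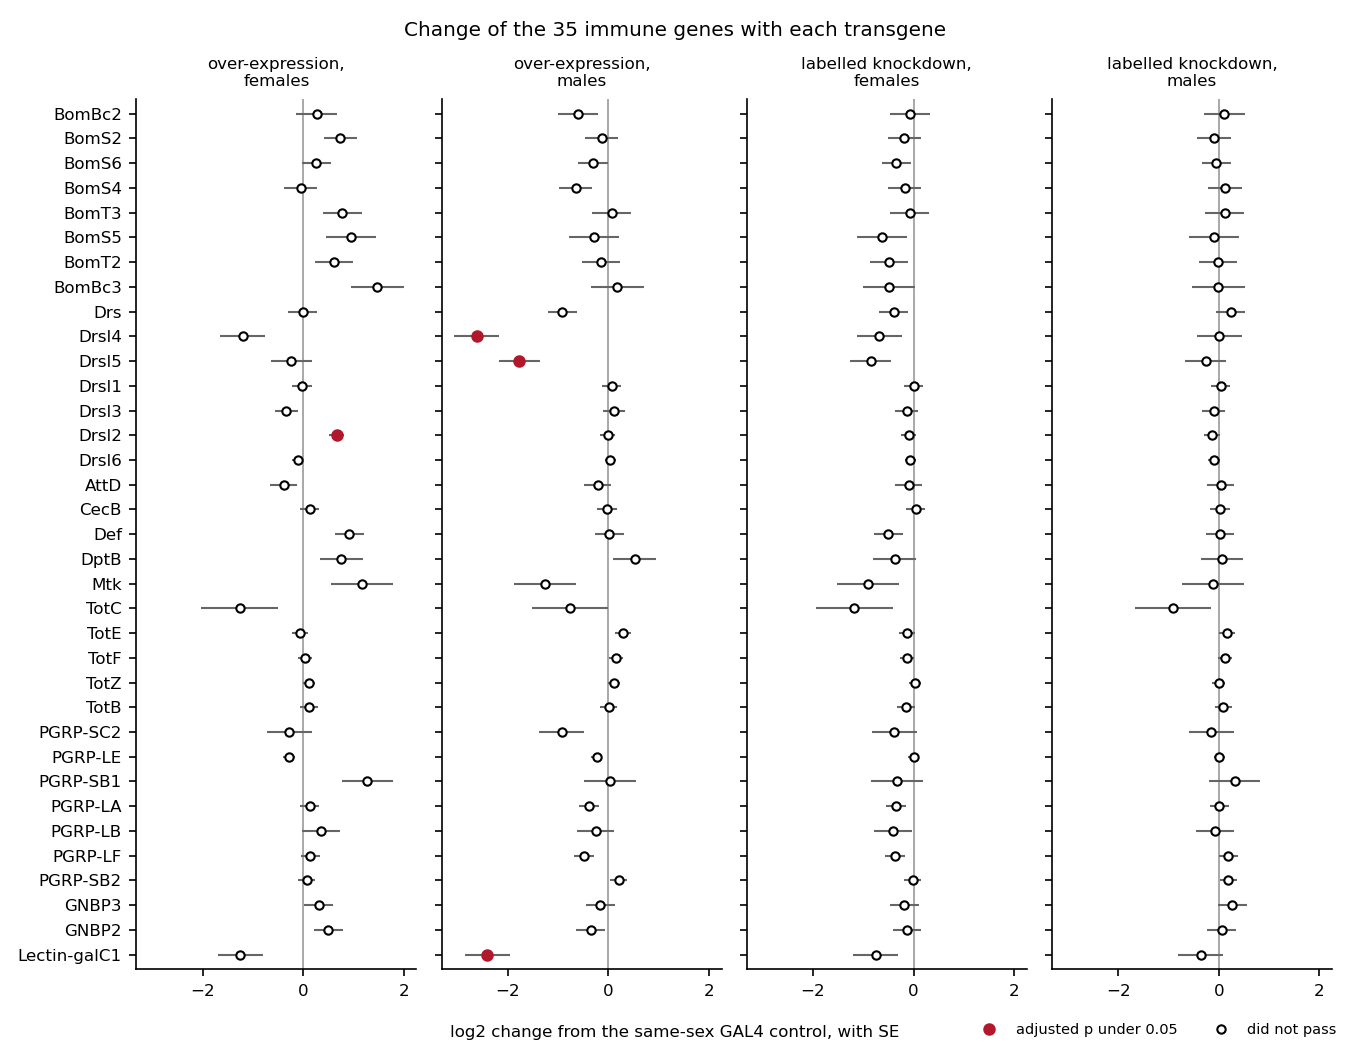
Log2 change of each of the 35 genes with its SE in over-expression females and males and in labelled knockdown females and males, each minus the GAL4 control of the same sex. Filled points passed (adjusted p under 0.05): Drsl2 in over-expression females and Drsl4, Drsl5 and Lectin-galC1 in over-expression males; no point is filled for labelled knockdown.

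In flies labelled knockdown, none of the 35 genes was called, in females (0.0213% of all probe sets called), males (0.0266%) or the mean of both sexes (0.0586%), and none had an unadjusted p under 0.05. Of all 18769 probe sets 795, 410 and 621 did so in the same order. In females 33 of the 35 differences were negative, with a median of -0.18 beside 0.00 over all probe sets. They included all 8 bomanins (-0.63 to -0.07), all 7 drosomycins (-0.85 to -0.001) and all 7 PGRPs (-0.41 to -0.002), some of them thus nearly unchanged. The size varied by batch: the median same-batch difference over the 35 genes was -0.19 in batch 1 (26 of 35 lower), -0.06 in batch 2 (24 lower) and -0.51 in batch 3 (30 lower). The control array of batch 3, arm-GAL4 females replicate 3, was itself high in some genes. BomBc3 read 8.24, 8.05 and 10.48 in that control group, and Mtk 6.37, 6.31 and 9.05. For the bomanins alone the batch medians were -0.29, 0.38 and -0.96, so the sign was not the same in every batch. In males 20 of 35 were positive, with a median of 0.01, and the batches had opposite signs. The median same-batch difference in males was -0.08 in batch 1 (25 of 35 lower), -0.06 in batch 2 (22 lower) and 0.34 in batch 3 (30 higher).

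The genes that fell with over-expression can be read beside this. Drsl4 read 9.47, 9.34 and 9.64 in labelled knockdown females, against 10.09, 9.37 and 11.05 in arm-GAL4 control females, a difference of -0.68 (SE 0.45). Lectin-galC1 read 7.92, 7.19 and 7.94 in those females, against 9.17, 7.22 and 8.92 in the control, a difference of -0.75 (SE 0.45). Drsl5 read 9.08, 9.62 and 10.02, against 10.05, 10.05 and 11.17, a difference of -0.85 (SE 0.41) with no overlap. None of the 3 passed (limma adjusted p = 0.983 each). In males the differences were 0.01 for Drsl4, -0.36 for Lectin-galC1 and -0.26 for Drsl5.

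The controls of the 2 drivers, which carry no Hr96 transgene, were set against each other, Act5C-GAL4 minus arm-GAL4. None of the 35 genes was called in females (0.170% of all probe sets), males (0.730%) or the mean (0.868%), and 0, 5 and 6 of them had an unadjusted p under 0.05 in the same order. Of all 18769 probe sets 742, 1813 and 1732 did so. Some of the differences in males were as large as those above. TotC read 5.59, 4.96 and 6.77 in Act5C-GAL4 males, against 7.68, 9.77 and 7.30 in arm-GAL4 males, a difference of -2.48 (SE 0.76, limma adjusted p = 0.174) with no overlap. Mtk read 8.79, 8.89 and 7.99 in Act5C-GAL4 males, against 6.38, 7.46 and 6.02, a difference of 1.93 (SE 0.62, limma adjusted p = 0.203), also with no overlap. All 8 bomanin differences in males were positive, from 0.27 to 1.18 (lowest limma adjusted p = 0.187). PGRP-SC2 was 0.79 higher over both sexes, in 6 of 6 pairs, which passed with the diet batch as a block (SE 0.15, adjusted p = 0.00902) and not without it (0.392). The over-expression comparison shares the Act5C-GAL4 arrays with this one.

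Females and males of the 2 controls differed in 5 of the 35 genes, where 63.0% of all probe sets were called. Drs, Def, PGRP-LE and Drsl6 were higher in females, and Drsl4 was lower. Over all probe sets the median difference, females minus males, was 0.20, and 0.06 over the 35 genes. With arrays set to a common median it was 0.40 over all probe sets, and the share of calls that were higher in females was 81.0% in place of 69.9%.

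Drs read 11.57, 11.70 and 11.93 in Act5C-GAL4 females and 11.83, 11.78 and 12.33 in arm-GAL4 females, against 9.61, 9.55 and 9.57 in Act5C-GAL4 males and 8.79, 9.82 and 8.89 in arm-GAL4 males. The sexes did not overlap, and Drs was 5.59-fold higher in females (log2 difference 2.48, SE 0.20, limma adjusted p = 2.5e-10, n = 6 arrays each). That is 2.29 above the median of all probe sets. The same split was seen in the other genotypes, where over-expression and labelled knockdown females read 11.26 to 12.25 and the males 8.16 to 9.41.

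Def was 2.42-fold higher in females (log2 difference 1.27, SE 0.20, limma adjusted p = 8.8e-06). It read 7.19, 8.54 and 7.80 in Act5C-GAL4 females and 8.19, 8.52 and 7.90 in arm-GAL4 females. In males of the same controls it read 6.25, 7.07 and 6.95, and 7.01, 6.99 and 6.23, all below every female array. PGRP-LE, which lies on the X chromosome, read 8.48 to 8.73 in control females and 7.79 to 8.23 in control males. It was 1.52-fold higher in females (0.61, SE 0.08, limma adjusted p = 5.3e-07). Drs, Def and PGRP-LE kept their calls with any of the 12 control arrays left out and under both other scalings, quantile normalization and a common median.

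Drsl4 was 1.79-fold lower in females (-0.84, SE 0.32, limma adjusted p = 0.0260), in 6 of 6 same-batch pairs but with overlapping ranges. Its call was lost without any of 5 control arrays, replicate 2 of Act5C-GAL4 females and of arm-GAL4 females and males and replicate 3 of both male groups (adjusted p = 0.0549 to 0.0881), and with a common median (-0.64, adjusted p = 0.0644). Drsl6 differed by 0.21 (SE 0.08, limma adjusted p = 0.0316), which is 0.01 above the median of all probe sets, at readings near the lower quartile. Its adjusted p was 0.0580 to 0.103 without any of 5 control arrays, and 0.185 after quantile normalization, where it lay at -0.05 relative to that median. With the diet batch as a block 4 more genes passed: AttD (0.37, adjusted p = 0.0177), PGRP-SC2 (0.47, 0.0105) and TotE (0.24, 0.0432) were higher in females and Lectin-galC1 (-0.52, 0.0385) was lower.

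Signalling genes of the same pathways were called between the sexes at shares that should be read against the 63.0% called over all probe sets. Of 12 Toll genes 8 were higher and 1 lower, among them Tl, the Toll receptor (2.62), and dl, a transcription factor of the pathway (1.42). Of 10 Imd genes 6 were higher and 1 lower, among them Tab2 (1.04) and the adaptor Fadd (1.02). All 5 JAK-STAT genes measured were higher, among them dome, the receptor (1.42). Of these 5, upd1 read under 4.38, the smallest lower quartile of any array, on every array, and upd2 read close above it. For upd1 a reading may be mostly background, and its difference is uncertain in size. Of the melanization genes 3 of 10 were higher, and of the opsonin and phagocytosis genes 4 of 14 were higher and 2 lower. Of the 2 other immune-induced peptide genes, Anp, a peptide gene known from the male ejaculatory duct, was lower in females (5.13, against 11.96 in males). The ovary and yolk list summed to 24544 to 49166 in control females, against 164 to 321 in control males. Of the other tissue markers, srp of the hemocyte list (1.01) and 2 of 5 midgut markers were higher in females, and Lsp2 of the fat body list (-2.39) was lower. The part of the reproductive organs in these differences was not tested.

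The diet batch was the other factor along which the genes differed. Over all 24 arrays 4 of the 35 genes differed between batches by the limma F test, where 2.02% of all probe sets were called. In PGRP-LB, PGRP-SC2 and AttD the batch 2 mean was the highest, and in Lectin-galC1 it was the lowest. What else differed between the batches besides the food is not given in the sources used here.

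PGRP-LB is an amidase that breaks down peptidoglycan and limits the Imd response. It averaged 6.03 in batch 1, 6.94 in batch 2 and 6.27 in batch 3 (limma adjusted p = 4.6e-04), and batch 2 held the highest array in 8 of 8 groups. Over-expression females read 6.47, 7.76 and 6.83 in batches 1 to 3, and Act5C-GAL4 control males 6.02, 7.47 and 6.10. The step between batches 1 and 2 was smallest in arm-GAL4 control females, with 6.15, 6.67 and 6.49. Batch 2 stood 0.91 (SE 0.11) above batch 1. The probe set is of a kind whose probes can match several transcripts, although the annotation names 1 gene for it.

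PGRP-SC2, an amidase of the same kind, averaged 9.51 in batch 1, 10.62 in batch 2 and 10.19 in batch 3 (limma adjusted p = 5.6e-04). Batch 1 held the lowest array in 8 of 8 groups, and batch 2 the highest in 6, the exceptions being over-expression males and labelled knockdown females, which read highest in batch 3. Batch 2 stood 1.11 (SE 0.13) above batch 1, and batch 3 stood 0.68 above it. Both PGRP calls held with any 1 of the 24 arrays left out. In males alone both passed (limma adjusted p = 0.0158 for PGRP-LB and 0.0387 for PGRP-SC2), and in females alone neither did (0.137 and 0.0537).

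AttD, a peptide gene of the Imd response, averaged 4.21, 4.66 and 4.14 in batches 1 to 3 (limma adjusted p = 0.0260), at readings mostly below the lower quartile. The batch 2 arrays of Act5C-GAL4 control females (5.60) and over-expression females (5.21) stood apart from the others, of which the highest was 4.59. Lectin-galC1 averaged 8.65, 7.75 and 8.49 (limma adjusted p = 0.0193) and was lowest in batch 2 in 7 of 8 groups, the exception being labelled knockdown males. Each of these 2 calls was lost without Act5C-GAL4 control females replicate 2 (adjusted p = 0.0752 for AttD and 0.0618 for Lectin-galC1) or arm-GAL4 control females replicate 2 (0.0563 and 0.0546), and neither passed in either sex alone.

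Of the 53 measured signalling and effector genes on the pathway lists, 2 differed between batches, a share near the 2.02% of all probe sets. pirk, which restrains PGRP signalling in the Imd pathway, averaged 7.64 in batch 1, 8.83 in batch 2 and 7.53 in batch 3 (limma adjusted p = 7.0e-04) and was highest in batch 2 in 8 of 8 groups. NimC4, a phagocytosis receptor, averaged 7.18, 6.72 and 6.53 (adjusted p = 0.0289). Among tissue markers 1 of 5 for the fat body and 1 of 7 for hemocytes differed: Lsd-1, a lipid droplet protein of the fat body, averaged 9.58, 8.71 and 10.00 (adjusted p = 0.00394), and Hml, a hemocyte protein, 7.16, 6.98 and 7.57 (adjusted p = 0.0424). The part of these tissues in the batch differences was not tested. The bomanins and Drs were not called between batches (lowest limma adjusted p = 0.149, for BomBc2).

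**Figure D4:**
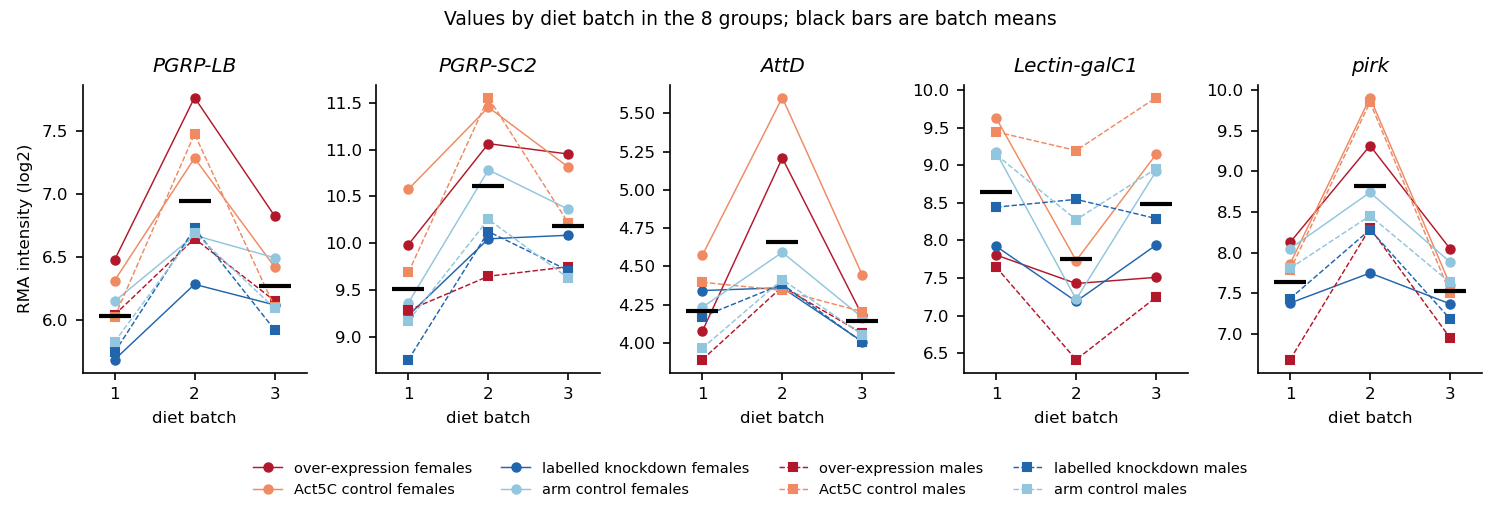
Log2 intensity by diet batch for the 4 genes called between batches and for pirk, 1 line per group of 3 arrays, with the mean of 8 arrays as a black bar. PGRP-LB and pirk were highest in batch 2 in all 8 groups, and Lectin-galC1 was lowest in batch 2 in 7 of 8.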

How the data were processed

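The authors deposited 1 table of RMA intensities, on a linear scale from 5.2 to 20754.22, for 24 arrays; RMA is named in the submitters' processing notes, and its version is not given in the sources used here. RMA subtracts background, normalizes arrays by quantiles and compresses large differences. The test plan expected values already on a log scale; these were therefore transformed to log2 without adding a pseudocount.

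Of 18952 probe sets, 183 controls were left out; of the rest, 13647 name 1 gene, 402 several and 4720 are unnamed here. All 35 genes matched the RefSeq gene table (Release 6 plus ISO1 MT) by symbol; no coordinates are given because the array annotation names no assembly. No column was left unmapped (0).

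limma 3.58.1 in R 4.3.3 was fitted to all 24 arrays with 1 mean per group (16 residual and 5.19 prior degrees of freedom), two-sided, with Benjamini-Hochberg adjustment over 18769 probe sets and a threshold of 0.05; there were 12 tests. p-values compare each difference with the spread of all replicate arrays. The steps were tested on simulated data. Figures used Python 3.11.15 and matplotlib 3.10.9.

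Genes named are those called in any test, the highest and lowest reading of each family and called pathway genes; Mtk, TotC, BomBc3, BomS2, DptB, PGRP-SB1, PGRP-LA, BomBc2 and pairs set side by side for their array order were also named after their values were seen. The genes and lists were chosen with earlier results of these data known.

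Replicate numbers are diet batches per the labels and so pair the samples: deviations from group means correlated at -0.07 to 0.57 over 12 pairs (mean 0.25, 9 over 0.1), and over the 35 genes alone at -0.06 to 0.78 (mean 0.45). The batch was a block only in an alternative fit. Also tried were a fit to the compared arrays alone, each sex alone, a minimum mean log2 of 5, quantile normalization, a common median, eBayes with trend and robust, the lowest-reading probe set, and each array left out.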

Additional observations from a re-analysis of the deposited data

How the results depend on the processing

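Of the 12 counts of called genes, 5 changed by no more than 1.5 times under every alternative: those of labelled knockdown in females, males and the mean, of the over-expression effect between sexes, and of Act5C-GAL4 minus arm-GAL4 in females, all 0. A count has no direction, and the split of the calls did change. In over-expression females 1 gene was higher and 0 lower in the main fit, and 1 and 1 with the replicate block. Females minus males had 4 higher and 1 lower in the main fit, and 11 and 0 with a common median. With the replicate block the counts were 2 in over-expression females (main 1), 4 in males (3) and 4 in the over-expression mean (2). They were 1 in Act5C-GAL4 minus arm-GAL4 in the mean (0) and 9 in females minus males (5). Over all probe sets, calls higher and lower with that block were 283 and 100 in over-expression females and 117 and 241 in males. In the over-expression mean they were 320 and 275. Between the drivers in the mean they were 133 and 110, and in females minus males 8501 and 3726. Fitted on the compared arrays alone, over-expression females had 0, with Drsl2 at an adjusted p of 0.349, and Act5C-GAL4 minus arm-GAL4 males had 2, BomBc2 and Mtk. A minimum mean log2 of 5 removed Drsl2 from testing and left 0 in over-expression females. With a common median 11 genes were called between females and males, all higher in females. Over all probe sets in that setting 12391 were called higher in females and 2909 lower. Most of all probe sets were thus called, so the 11 genes are not an excess. The diet batch test had 0 calls in females alone and 2 in males alone, with fewer arrays. Drsl5 in over-expression males missed the threshold on the compared arrays alone (adjusted p = 0.0737) and with trend and robust (0.0612), and Drsl6 between the sexes missed it on the compared arrays alone (0.0862).

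Leaving out 1 array at a time gave 0 to 1 calls in over-expression females, 1 to 4 in males and 2 to 3 in the mean. It gave 0 to 3 in Act5C-GAL4 minus arm-GAL4 in the mean (3 without arm-GAL4 females replicate 3) and 2 to 5 for the diet batch. Females minus males ranged from 3 (without arm-GAL4 females replicate 2 or males replicate 3) to 9 (without arm-GAL4 females replicate 3). The cause of these changes was not tested. Each gene has 1 probe set, so the lowest-reading probe set gave the same values. With 3 arrays a group and an SD of 0.39 in the median gene, small differences are not detectable here.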

Other observations

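None of the 35 genes was called between the 2 driver controls in males, but several read without overlap of the groups. BomBc2, BomS2, BomS4, BomS5, BomT2, Lectin-galC1, Mtk, PGRP-LF and PGRP-SB1 read higher on all 3 Act5C-GAL4 arrays than on any arm-GAL4 array, and TotC read lower. How many of all probe sets did so is not given here, so the list is not a result about these genes as a set. BomS2 read 11.65, 11.96 and 11.23 in Act5C-GAL4 males, against 10.34, 10.98 and 10.36 in arm-GAL4 males (difference 1.05, limma adjusted p = 0.187). In over-expression males, which carry the same driver, it read 12.02, 10.82 and 11.59. BomT2 read 10.25, 9.68 and 9.92 in Act5C-GAL4 males, against 8.54, 9.23 and 8.54 in arm-GAL4 males (1.18, adjusted p = 0.205).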
